A study of Arabidopsis thaliana with 4 samples.

Results

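Aquaporins are the channel proteins through which water and small uncharged solutes cross plant membranes. The set described here is the Arabidopsis thaliana aquaporin gene family, 35 of the 27655 genes of an RNA-seq table of roots, chosen by locus identifier as the members of the gene family. It holds 13 PIP genes, 10 TIP genes, 9 NIP genes and 3 SIP genes. The roots came from Col-0 (ecotype Columbia) wild-type seedlings kept for 8 days on Murashige and Skoog medium (1/2MS in the design text) with 5 µM phosphate, here low_Pi, or with 625 µM phosphate, here plus_Pi. Poly(A) RNA was sequenced, with 2 libraries a group, and the study asked how roots respond to phosphate starvation. Both groups are also dark grown by the name of the deposited table, a point on which the sample labels are silent. No transgene or mutant is named for either group, and nothing in the labels says that the 2 libraries of a group came from separate cultures.

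Aquaporins fold into tetramers in which every subunit carries its own pore. Plasma membrane intrinsic proteins (PIPs) carry water into and out of root cells, with PIP1 subunits commonly reaching the membrane together with PIP2 subunits, and they set much of the hydraulic conductivity of the root. Tonoplast intrinsic proteins (TIPs) sit in the vacuole membrane, nodulin 26-like intrinsic proteins (NIPs) carry small solutes such as boric acid, arsenite and glycerol, and small basic intrinsic proteins (SIPs) sit in the endoplasmic reticulum.

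The deposited values are normalized scores in whole numbers, in 4 columns whose totals ran between 38831704 and 44635953, and the depth behind them is unknown. With a common ratio between 2 columns allowed for, the spread within a group was smaller than that of read counts drawn from a single pool. The chi-square per gene was 0.276 between the low_Pi columns and 0.435 between the plus_Pi columns, against 240.0 between columns of different groups. The columns were therefore counted as 1 sample a group, the results below rest on a size rule and not on a test between groups, and the spread between columns is no biological error. A gene was called measured where its mean over the 4 columns was at least 41.5, which held for 18729 genes. A difference is the mean log2(value + 41.5) of low_Pi minus that of plus_Pi, which understates the change of genes with small values, and a gene was called higher or lower from a 2-fold difference on. The median difference over all measured genes was -0.26, so each difference can also be read relative to that gene. Of the 6 root markers all were measured, the starvation transcript IPS1 was at 27943 and 26144 in the low_Pi columns against 99 and 412 in the plus_Pi columns, and the 3 pollen markers were at 0 in every column. In whole roots, fewer cells of a type and less RNA per cell cannot be told apart.

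Aquaporin transcript as a whole took nearly the same share of the table in both groups, between 1.29% and 1.31% in each of the 4 columns. Within that total, PIP genes took a smaller share in the low_Pi columns and TIP1;2, a single vacuolar channel gene, a larger one. The 13 PIP genes held 0.645% and 0.649% of the low_Pi columns against 0.780% and 0.773% of the plus_Pi columns, a log2 ratio of -0.26. That ratio is of shares of column totals, so it is not on the scale of the gene differences, which use the deposited values. On the deposited values the median difference was -0.25 over the 13 PIP genes and -0.26 over all measured genes. On that scale 8 of the 13 PIP genes lay above the median gene. The 10 TIP genes together held 0.617% and 0.619% of the low_Pi columns against 0.475% and 0.473% of the plus_Pi columns, a log2 ratio of 0.38. Without TIP1;2 the other 9 TIP genes held 0.310% and 0.312% of the low_Pi columns against 0.308% and 0.305% of the plus_Pi columns. The net gap for the TIP class was thus almost all in that gene, while differences among the others partly cancelled. Of the 7 measured TIP genes, 6 had differences above 0, and 1, TIP2;2, stood at -0.91. Corrected for length, as value per kilobase of exon, PIPs made up 44.9% of the family in low_Pi roots and 55.7% in plus_Pi roots. TIPs made up 51.8% in low_Pi roots and 40.9% in plus_Pi roots, but without TIP1;2 they made up 26.6% in low_Pi roots and 26.8% in plus_Pi roots. NIPs held 1.79% in low_Pi roots and 1.75% in plus_Pi roots, and SIPs 1.56% in low_Pi roots and 1.59% in plus_Pi roots.

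Gene by gene, 30 of the 35 members were measured. Only 1 of the 30, TIP1;3 (AT4G01470), was at least 2-fold higher in low_Pi roots, which is 3.33% of the measured members beside 4.58% of all measured genes, and only 1, PIP2;3 (AT2G37180), was at least 2-fold lower, beside 4.47% of all measured genes. Median-of-ratios scaling of the columns raised the number of higher members to 3, with TIP1;2 and NIP6;1, and under the deposited scaling a filter at a mean of 208 brought it to 0, since it removed TIP1;3. At 1.5-fold, 5 members (16.7%) were higher beside 8.77% of all measured genes, and 4 members (13.3%) were lower beside 20.7%. For 11 members (36.7%) both low_Pi columns lay above both plus_Pi columns, as for 21.9% of all measured genes, and for 11 (36.7%) both lay below, as for 62.5%. In the other 8 the columns of the groups overlapped, with differences between -0.08 and 0.11. Column order, here and below, was read on the deposited values without rescaling. The totals stood at a ratio of 0.923 between the low_Pi columns and 1.10 between the plus_Pi columns. Whether the groups of a gene overlap therefore depends in part on the scaling of the columns. The median difference of the 30 members was 0.03, against the median of -0.26 over all measured genes, and 22 of the 30 lay above that median gene. TIP1;3 was also the only measured member that reached the filter through 1 group alone, so its passing the filter and its difference are not separate observations.

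**Figure D1:**
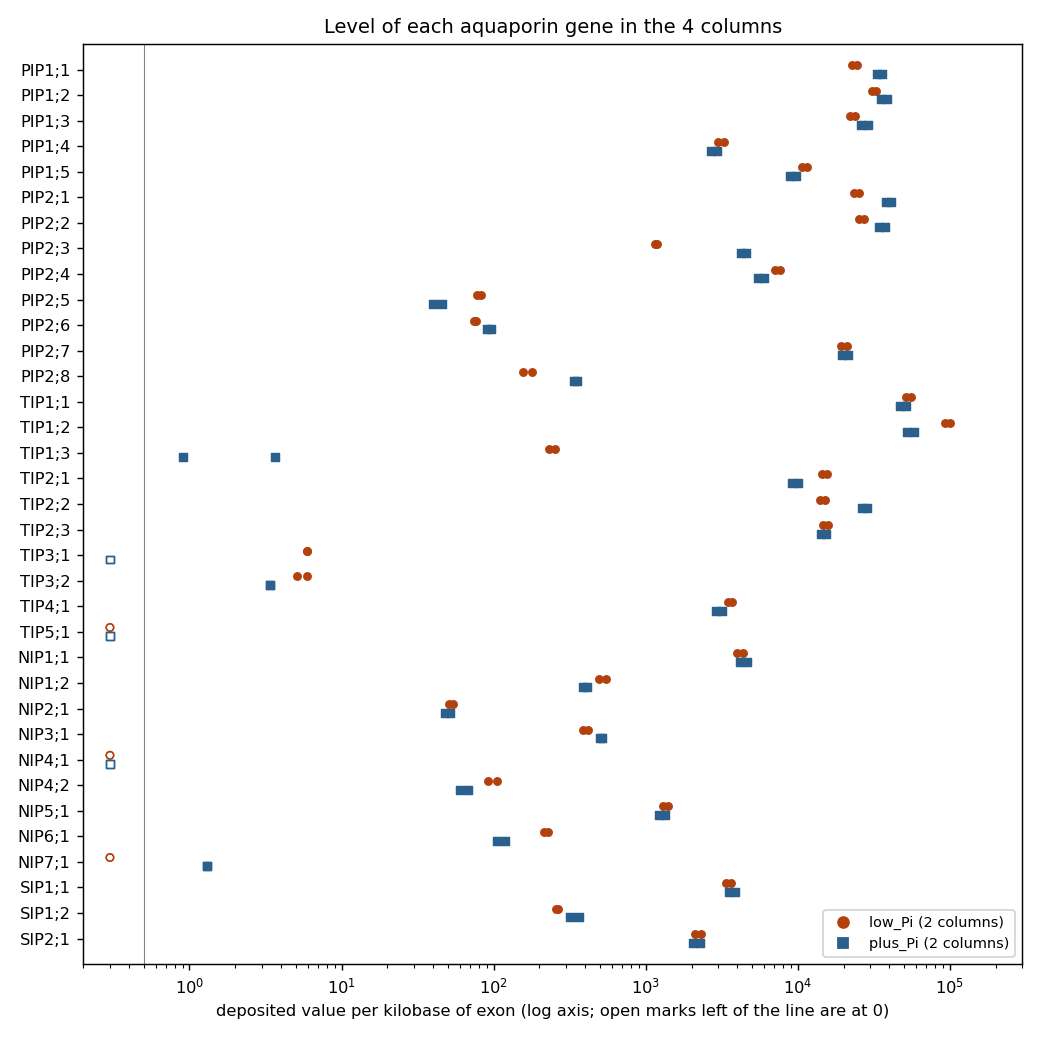
Deposited value per kilobase of exon (log axis) of each of the 35 aquaporin genes, with circles for the 2 low_Pi columns and squares for the 2 plus_Pi columns, and open marks left of the line for values of 0. The levels span from 0 to a mean of 96322 for TIP1;2 at low phosphate, and among the measured genes TIP1;3 shows the widest gap between the groups.

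Among the 5 PIP1 genes, which encode subunits with low water transport of their own in frog oocytes, none was 2-fold apart. PIP1;1 (AT3G61430) had 37952 and 35256 in the low_Pi columns against 51440 and 56064 in the plus_Pi columns, a difference of -0.55. PIP1;2 (AT2G45960), which also passes carbon dioxide, had 52301 and 48750 in the low_Pi columns against 56195 and 61251 in the plus_Pi columns, a difference of -0.22. PIP1;3 (AT1G01620) had 37063 and 34384 in the low_Pi columns against 40607 and 44571 in the plus_Pi columns, a difference of -0.25. In these 3 genes, the most abundant PIP1 members per kilobase, both low_Pi columns lay below both plus_Pi columns. The same column order held for 62.5% of all measured genes. Relative to the median gene, AT3G61430 stood at -0.30, AT2G45960 at 0.04 and AT1G01620 at 0.003. Once the columns were rescaled by the median of ratios, AT2G45960 sat at 0.06 and AT1G01620 at 0.02. PIP1;4 (AT4G00430), which passes hydrogen peroxide, had 6492 and 5993 in the low_Pi columns against 5406 and 5862 in the plus_Pi columns, a difference of 0.15. PIP1;5 (AT4G23400) had 15154 and 14167 in the low_Pi columns against 11854 and 12966 in the plus_Pi columns, a difference of 0.24. These 2 less abundant genes ran the other way, with both low_Pi columns above both plus_Pi columns, as for 21.9% of all measured genes.

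The PIP2 genes encode the strong water channels of the plasma membrane, and they include the most negative difference among the measured members. AT2G37180, first described as the dehydration-responsive gene RD28, had 1445 and 1394 in the low_Pi columns against 5182 and 5596 in the plus_Pi columns, a difference of -1.89. Both low_Pi columns were far below both plus_Pi columns, and per kilobase the gene was the 20th most abundant aquaporin in low_Pi roots and the 14th in plus_Pi roots. Relative to the median gene the difference was -1.64, and median-of-ratios scaling, which makes nearly the same shift, gave -1.62. The difference lay between -1.95 and -1.84 when any 1 column was left out. The same settings moved the median of all measured genes between -0.32 and -0.19, so this range is not particular to the gene. It is no biological error, since the columns of a group lay so close together.

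This gene has a near-identical neighbour, PIP2;2 (AT2G37170), a channel known for its part in root water transport. On chromosome 2 the 2 genes point away from each other with 2612 bases between them, and their coding sequences are identical at 94.8% of 858 aligned bases, with 45 differences and a longest identical run of 242 bases. A matched stretch of 120 bases from the second coding exon (coding bases 415 to 534), shown because reads can be told apart only where such differences lie, carries 16 differences, in capitals. It spans chr2:15618314-15618433 on the plus strand in the first gene and chr2:15614137-15614256 on the minus strand in the second, in RefSeq's TAIR10.1, read from the genome by locus identifier. The deposited table has no coordinates, and its genome build is not given in the sources used here.
AT2G37180: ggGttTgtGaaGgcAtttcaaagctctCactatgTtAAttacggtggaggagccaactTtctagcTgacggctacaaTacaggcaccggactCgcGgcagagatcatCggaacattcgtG
AT2G37170: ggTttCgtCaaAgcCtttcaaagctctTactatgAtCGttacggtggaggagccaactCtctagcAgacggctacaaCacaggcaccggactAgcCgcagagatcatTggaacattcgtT

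The neighbour was much more abundant and differed less, with 36550 and 33830 in the low_Pi columns against 46038 and 50228 in the plus_Pi columns, a difference of -0.45. The ratio of PIP2;3 to PIP2;2 was 0.0395 and 0.0412 in the low_Pi columns against 0.113 and 0.111 in the plus_Pi columns. Such a ratio of deposited values within a column does not move with the scaling of the columns, and since it is not corrected for length it is compared only between groups. Of the 50-base stretches of the PIP2;3 transcript, 21.7% also occur in other annotated transcripts, most often in those of the neighbour, and 12.8% of its 100-base stretches do. Reads from these places may have been split between the copies or dropped, and both values carry that uncertainty. On its other side PIP2;3 lies 50 bases from the end of AT2G37190, whose values were 6421 and 5877 in the low_Pi columns against 10492 and 11428 in the plus_Pi columns, a difference of -0.83.

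The next closest relative, PIP2;1 (AT3G53420), a main root water channel that also passes hydrogen peroxide, had 39483 and 36572 in the low_Pi columns against 59989 and 64981 in the plus_Pi columns, a difference of -0.72. PIP2;8 (AT2G16850), a scarce member, had 264 and 230 in the low_Pi columns against 496 and 521 in the plus_Pi columns, a difference of -0.93. Both PIP2 genes had their low_Pi columns below their plus_Pi columns. PIP2;8 passed the 2-fold limit with the smaller pseudocount (-1.03) and without low_Pi replicate 1 (-1.02), a setting that also moved the median of all measured genes to -0.31. PIP2;6 (AT2G39010) had 165 and 159 in the low_Pi columns against 194 and 207 in the plus_Pi columns, a difference of -0.25, close to that of the median gene. PIP2;7 (AT4G35100), a channel known from salt stress, had 33507 and 31008 in the low_Pi columns against 31100 and 34092 in the plus_Pi columns. The groups overlapped for this gene. PIP2;4 (AT5G60660), known for expression in roots, had 11031 and 10257 in the low_Pi columns against 7877 and 8734 in the plus_Pi columns, a difference of 0.36. PIP2;5 (AT3G54820) had 147 and 140 in the low_Pi columns against 72 and 82 in the plus_Pi columns, a difference of 0.64. For PIP2;4 and PIP2;5, 2 of the 8 PIP2 genes, both low_Pi columns lay above both plus_Pi columns (25.0%, beside 21.9% of all measured genes). In 5 of the 8 (62.5%) they lay below, the same share as over all measured genes, and in 1 the groups overlapped.

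**Figure D2:**
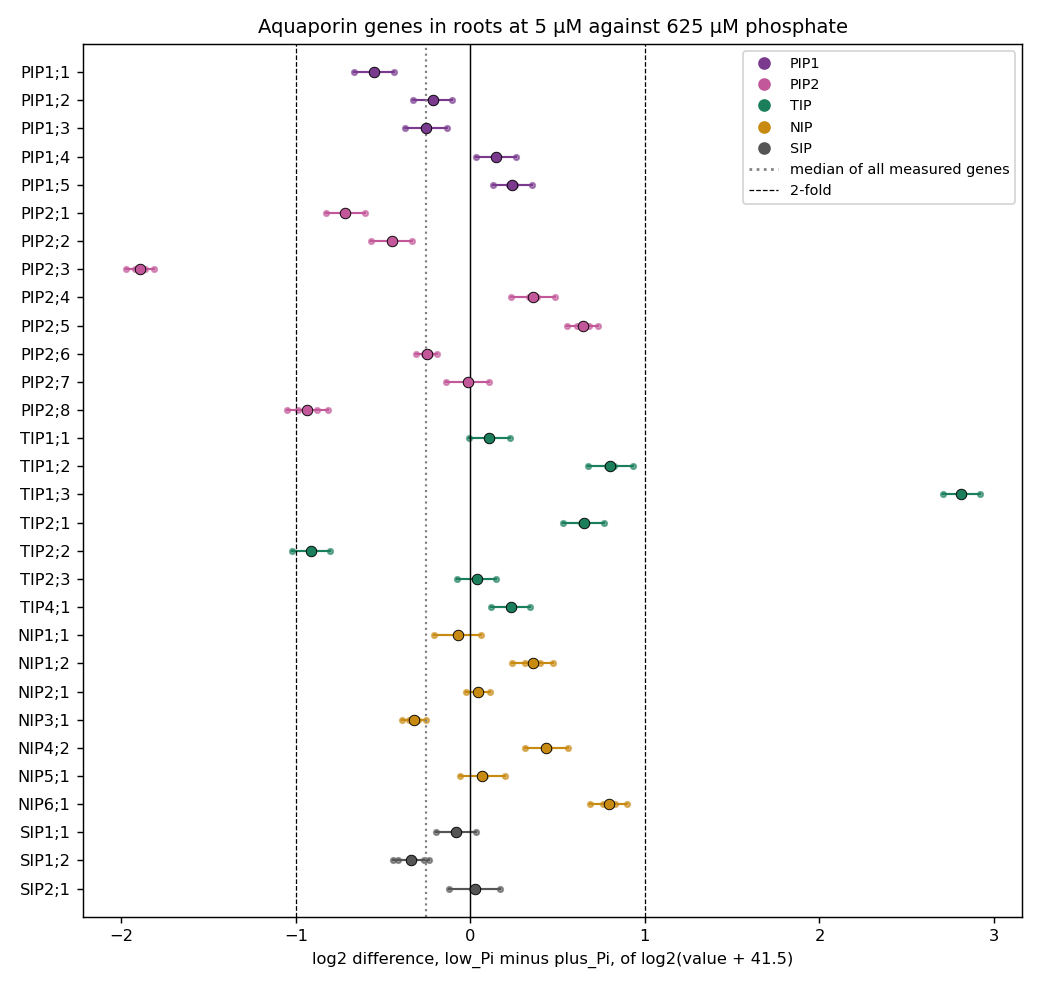
Difference of log2(value + 41.5), low_Pi minus plus_Pi, for the 30 measured aquaporin genes, with the large point for the difference of the group means, the small points for the 4 pairs of columns and the line for their range. The dotted line marks the median of all measured genes at -0.26 and the dashed lines 2-fold. As deposited, 9 of the 13 PIP genes lie left of 0 but only 5 of them left of the dotted line, 6 of the 7 measured TIP genes lie right of both, and TIP1;3 at 2.81 and PIP2;3 at -1.89 stand outside the dashed lines.

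The TIP1 genes encode the dominant water channels of the vacuole membrane, which also pass urea and hydrogen peroxide. TIP1;2 (AT3G26520) had 129068 and 119444 in the low_Pi columns against 67608 and 74897 in the plus_Pi columns, a difference of 0.80, or 1.06 relative to the median gene. It was the most abundant aquaporin per kilobase in both groups, and alone made up 25.2% of the family per kilobase in low_Pi roots against 14.2% in plus_Pi roots. With median-of-ratios or trimmed-mean scaling it passed the 2-fold limit, at 1.08 under each. Its closest relative, TIP1;1 (AT2G36830), was second in abundance in both groups, with 68414 and 63576 in the low_Pi columns against 58484 and 64023 in the plus_Pi columns. The groups overlapped for TIP1;1, and the ratio of TIP1;2 to TIP1;1 was 1.89 and 1.88 in the low_Pi columns against 1.16 and 1.17 in the plus_Pi columns.

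The third member of this group, TIP1;3, is known as a pollen aquaporin. It had 280 and 256 in the low_Pi columns against 1 and 4 in the plus_Pi columns, a difference of 2.81. The plus_Pi values are near 0 and their depth is unknown, so the size depends on the pseudocount: it was 5.39 with a pseudocount of 4.15 and 1.18 with 208. Relative to the median gene it was 3.07. No 50-base stretch of its transcript occurs in another transcript of the annotation. The 3 pollen markers VGD1, PPME1 and VGDH1 were at 0 in all 4 columns, and so was the other TIP gene known from pollen, TIP5;1 (AT3G47440).

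On chromosome 4 this gene lies head to head with PPa5 (AT4G01480), which encodes a soluble inorganic pyrophosphatase. The interval between the annotated starts of the 2 genes, chr4:625886-626068 in TAIR10.1, is only 183 bases long and is printed on the minus strand, the strand of the aquaporin, because both genes were higher at low phosphate on its 2 sides.
TIP1;3 to PPa5 interval: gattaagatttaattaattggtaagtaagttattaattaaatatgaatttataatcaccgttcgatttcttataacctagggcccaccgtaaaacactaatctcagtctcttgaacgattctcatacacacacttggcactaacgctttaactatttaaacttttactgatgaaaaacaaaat
The motif GNATATNC, known as P1BS and bound by the phosphate starvation regulator PHR1, was searched on both strands, where it reads alike, and has no match in this interval, which says only that these letters are not in this window. PPa5 had 23235 and 21436 in the low_Pi columns against 5608 and 6409 in the plus_Pi columns, a difference of 1.89. The value of TIP1;3 was 1.21% and 1.19% of that of PPa5 in the low_Pi columns against 0.0178% and 0.0624% in the plus_Pi columns, so the ratio of the 2 genes also differed between the groups. The gene on the other side, AT4G01460, was near the floor, with 16 and 14 in the low_Pi columns against 14 in each plus_Pi column. No source used here states the strand of counting, and a part of PPa5 reads in the aquaporin's value was not tested.

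**Figure D3:**
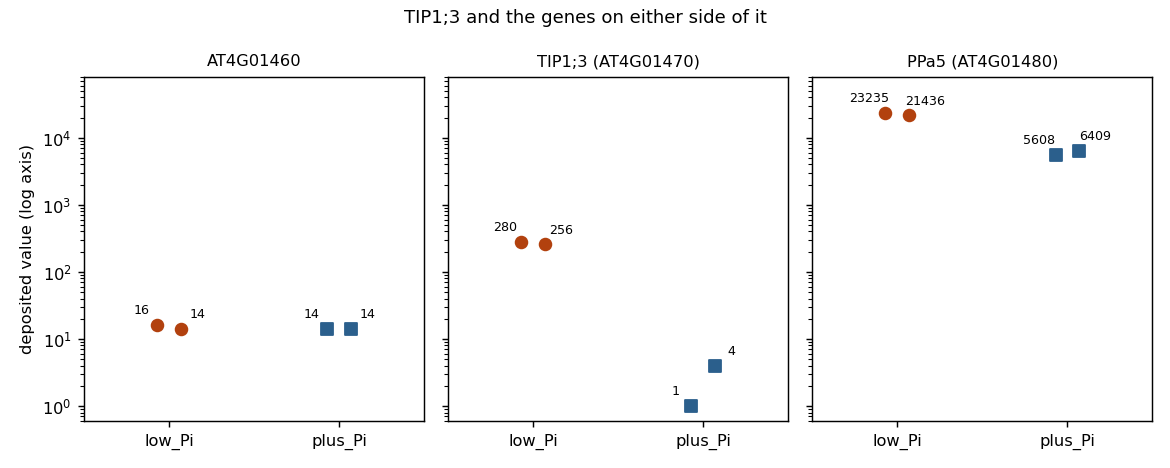
Deposited values (log axis) of TIP1;3 in the middle panel and of the genes on either side of it on chromosome 4, AT4G01460 left and PPa5 right, with circles for the 2 low_Pi columns and squares for the 2 plus_Pi columns. The aquaporin has 280 and 256 at low phosphate against 1 and 4, PPa5 is also higher there, and AT4G01460 stays between 14 and 16.

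The TIP2 genes, some of whose products pass ammonia as well as water, differed from each other in direction. TIP2;1 (AT3G16240) had 18453 and 17165 in the low_Pi columns against 10832 and 11865 in the plus_Pi columns, a difference of 0.65. TIP2;2 (AT4G17340) had 20466 and 18936 in the low_Pi columns against 35738 and 38550 in the plus_Pi columns, a difference of -0.91. TIP2;3 (AT5G47450) had 18338 and 17106 in the low_Pi columns against 16566 and 18020 in the plus_Pi columns, with overlapping groups. Thus TIP2;1 had both low_Pi columns above and TIP2;2 both below the plus_Pi columns, and TIP2;2 just passed the 2-fold limit with quantile normalization. In low_Pi roots the 3 genes lay close together, at 14978, 14561 and 15160 per kilobase in the order named, ranks 10, 11 and 9 of the family. In plus_Pi roots they lay further apart, at 9545, 27453 and 14793 per kilobase, ranks 11, 8 and 10. The ratio of TIP2;2 to TIP2;1 in deposited values was 1.11 and 1.10 in the low_Pi columns against 3.30 and 3.25 in the plus_Pi columns, a pair picked after its values were seen.

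TIP2;2 is 1 of 2 members with a P1BS match in the 250 bases before the annotated start. The sequence is shown because this gene is among the 4 measured members with the largest differences, and the only one of these 4 with a match in that window. It spans chr4:9698690-9698939 on the plus strand in TAIR10.1, with the match in capitals, 157 bases before the start.
AT4G17340 upstream: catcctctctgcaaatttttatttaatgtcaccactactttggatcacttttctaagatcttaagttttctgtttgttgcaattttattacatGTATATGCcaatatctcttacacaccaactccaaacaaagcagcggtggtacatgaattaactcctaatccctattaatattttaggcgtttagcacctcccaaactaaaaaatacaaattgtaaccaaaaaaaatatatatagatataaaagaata
The other member with a match is PIP2;4, at 187 bases. These 2 of 35 members are 5.71%, beside 5.46% of 27444 genes with the motif in a window of that length, and within 1000 bases it was found for 12 members (34.3%) beside 20.3% of genes. The 2 matched genes differed in opposite directions, with -0.91 for the first and 0.36 for the other. A match is a description of the letters and not evidence of binding.

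TIP4;1 (AT2G25810), a root tonoplast channel for water and urea, had 4345 and 4058 in the low_Pi columns against 3419 and 3728 in the plus_Pi columns, a difference of 0.23 without overlap. The seed-type genes were not measured: TIP3;1 (AT1G73190) had 7 in each low_Pi column against 0 in each plus_Pi column, and TIP3;2 (AT1G17810) had 7 and 6 in the low_Pi columns against 4 in each plus_Pi column. The 6 seed markers summed to 344 and 318 in the low_Pi columns against 34 and 43 in the plus_Pi columns, mostly from the storage protein gene CRA1, with 261 and 242 in the low_Pi columns against 8 and 11 in the plus_Pi columns. The part of seed transcripts in the TIP3 values was not tested. On the map each also overlaps a measured gene, AT1G73200 with a mean of 1840 for the first and AT1G17820 with a mean of 852.5 for the second.

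Among the NIP genes, 7 of 9 were measured and none was 2-fold apart. NIP5;1 (AT4G10380), the boric acid channel of root uptake, had 3037 and 2810 in the low_Pi columns against 2644 and 2927 in the plus_Pi columns, and the groups overlapped. Its closest relative NIP6;1 (AT1G80760), known for distributing boron in shoots, had 274 and 259 in the low_Pi columns against 128 and 145 in the plus_Pi columns, a difference of 0.79. Here both low_Pi columns lay above both plus_Pi columns, and the ratio of the second gene to the first was 0.0902 and 0.0922 in the low_Pi columns against 0.0484 and 0.0495 in the plus_Pi columns. For AT1G80760 the difference was 1.02 with median-of-ratios or trimmed-mean scaling and 0.46 with a pseudocount of 208. On the map AT1G80760 overlaps AT1G80750, a gene with a mean of 1910.5. No 50-base stretch of the AT1G80760 transcript occurs in another annotated transcript, and the share of reads taken from AT1G80750 was not tested.

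NIP1;1 (AT4G19030), a route for arsenite, had 6356 and 5825 in the low_Pi columns against 6086 and 6734 in the plus_Pi columns, and the groups overlapped. NIP1;2 (AT4G18910), which carries aluminium malate, had 794 and 706 in the low_Pi columns against 561 and 591 in the plus_Pi columns, a difference of 0.36. The low_Pi columns of AT4G18910 lay above its plus_Pi columns. NIP3;1 (AT1G31885), also linked to arsenite, ran the other way with 597 and 557 in the low_Pi columns against 721 and 743 in the plus_Pi columns, a difference of -0.32, close to that of the median gene. It shares 11.4% of its 50-base stretches with other annotated transcripts, most often with the pseudogene AT2G21020. NIP4;2 (AT5G37820), known from pollen, had 123 and 108 in the low_Pi columns against 70 and 79 in the plus_Pi columns, a difference of 0.44, with no overlap. Its tandem copy NIP4;1 (AT5G37810), 88.0% identical in coding sequence, was listed at 0 in all 4 columns. NIP2;1 (AT2G34390), a lactic acid channel of roots short of oxygen, had 76 and 71 in the low_Pi columns against 67 and 73 in the plus_Pi columns, with overlapping groups. Of its 50-base stretches 62.2% also occur in other annotated transcripts, most often in those of the non-coding gene AT2G08660. NIP7;1 (AT3G06100), an anther boric acid channel, was not measured, with 0 in each low_Pi column against 2 in each plus_Pi column.

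No difference among the 3 SIP genes was above 0.34 in size. SIP1;1 (AT3G04090) had 4697 and 4376 in the low_Pi columns against 4593 and 5020 in the plus_Pi columns. SIP2;1 (AT3G56950) had 2950 and 2692 in the low_Pi columns against 2616 and 2931 in the plus_Pi columns. The groups overlapped for both. SIP1;2 (AT5G18290) had 342 and 334 in the low_Pi columns against 410 and 469 in the plus_Pi columns, a difference of -0.34 with both low_Pi columns below. Of the 30 measured members, 5 overlap another gene of the table on the map: besides AT1G80760, these are AT3G16240 with AT3G16250 (mean 12.5), AT2G34390 with AT2G34380 (mean 437.5), AT3G56950 with AT3G56940 (mean 372.5) and AT5G18290 with AT5G18300 (listed at 0).

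Medians by subfamily were -0.22 over the 5 PIP1 genes, -0.35 over the 8 PIP2 genes, 0.23 over the 7 measured TIP genes, 0.07 over the 7 measured NIP genes and -0.08 over the 3 SIP genes, beside -0.26 over all measured genes. The signs for PIP1 and SIP depended on the scaling, since median-of-ratios scaling gave 0.06 for PIP1 and 0.19 for SIP. With that scaling the PIP2 median was -0.10 and the TIP median 0.51. It divides each column by a single factor and shifts all subfamilies by nearly the same amount. The unchanged order, with PIP2 lowest and TIP highest, is therefore no separate observation.

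Ratios within a column also showed shifts among near relatives. Pairs were formed wherever each gene was the other's closest relative by coding sequence and both were measured, which gave 10 pairs. In each pair the gene listed later was divided by the one listed earlier. The direction of a ratio follows from that order and cannot be compared between pairs. Of the PIP1 genes, the ratio of AT2G45960 to AT3G61430 was 1.38 in each low_Pi column against 1.09 in each plus_Pi column. That of AT4G00430 to AT1G01620 was 0.175 and 0.174 in the low_Pi columns against 0.133 and 0.132 in the plus_Pi columns. Divided in that order, both ratios were higher in the low_Pi columns.

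The pair of PIP2;3 and PIP2;2 is given above, and the other PIP2 pairs follow here. The ratio of AT2G39010 to AT3G54820 was 1.12 and 1.14 in the low_Pi columns against 2.69 and 2.52 in the plus_Pi columns, and that of AT2G16850 to AT4G35100 was 0.00788 and 0.00742 in the low_Pi columns against 0.0159 and 0.0153 in the plus_Pi columns. Between the TIP2 genes, the ratio of AT5G47450 to AT4G17340 was 0.896 and 0.903 in the low_Pi columns against 0.464 and 0.467 in the plus_Pi columns. The NIP1 pair, AT4G18910 over AT4G19030, gave 0.125 and 0.121 in the low_Pi columns against 0.0922 and 0.0878 in the plus_Pi columns. The narrowest gap among the 10 pairs was that of the SIP1 pair, AT5G18290 over AT3G04090, with 0.0728 and 0.0763 in the low_Pi columns against 0.0893 and 0.0934 in the plus_Pi columns. Since the columns of a group lay so close together, and most measured genes had groups without overlap, a gap between groups is not by itself a finding about a pair.

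**Figure D4:**
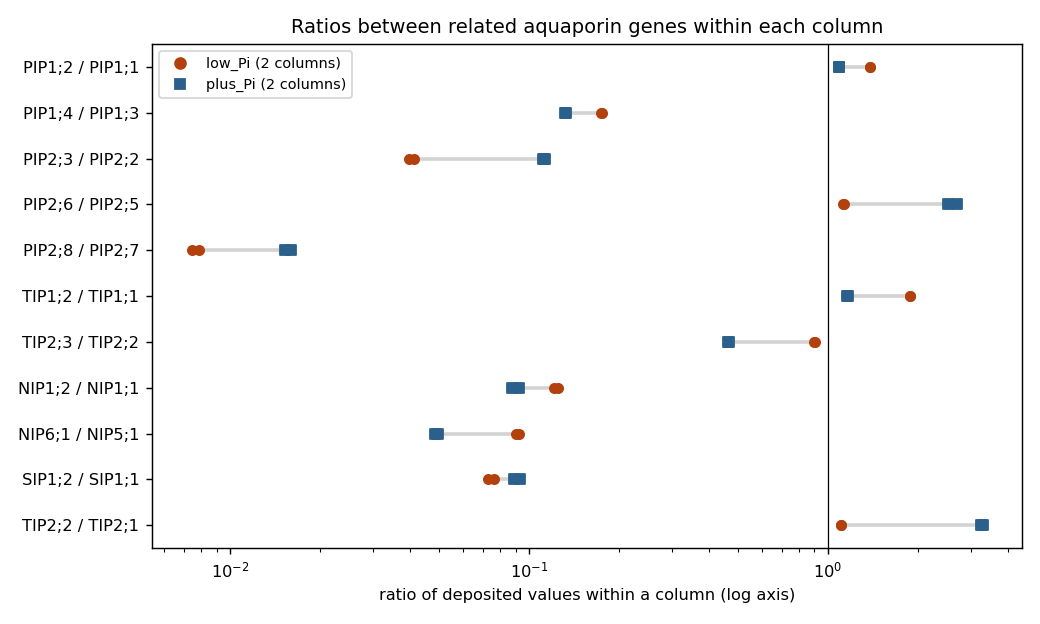
Ratio of deposited values of related aquaporin genes within each column (log axis), with circles for the 2 low_Pi columns and squares for the 2 plus_Pi columns, and the vertical line at a ratio of 1. PIP2;3 over PIP2;2, and TIP2;2 over TIP2;1, a pair picked after its values were seen, show the widest gaps.

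Genes that act on aquaporins were taken as a list of 10, of which 9 were measured. Of these, 2 were lower and none was higher, with a median of -0.13. Of all measured genes 4.47% were lower and 4.58% higher, with a median of -0.26. The lower genes of the list were a pair of RING membrane-anchored ubiquitin ligases, a family that marks PIP2 proteins for degradation. RMA1 had 526 and 485 in the low_Pi columns against 1185 and 1304 in the plus_Pi columns, a difference of -1.23. RMA2 had 338 and 316 in the low_Pi columns against 1002 and 1107 in the plus_Pi columns, a difference of -1.57. In both, all low_Pi values lay well below the plus_Pi values, whereas the third ligase, RMA3, stood at -0.13. The syntaxins SYP121 and SYP61, which move PIPs to the plasma membrane, stood at 0.61 and -0.06, and the receptor kinases SIRK1 and QSK1, which act on PIP phosphorylation, at -0.24 and 0.33. The kinase HCR1 and the transcription factor XND1, both known for root hydraulic conductivity, stood at -0.34 and 0.64, and TSPO, which delivers PIP2 proteins for autophagy, was not measured.

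Carriers that share solutes with aquaporins were taken as a list of 4, of which 1 was lower and none higher, with a median of -0.54. Of all measured genes 4.47% were lower and 4.58% higher, with a median of -0.26. DUR3, the high-affinity urea transporter of roots, had 702 and 650 in the low_Pi columns against 2518 and 2772 in the plus_Pi columns, a difference of -1.90 without overlap. The boron exporters BOR1, BOR2 and BOR4 stood at -0.77, -0.31 and 0.13. The 4 tonoplast proton pump genes, which share the vacuole membrane with the TIPs, were all under 2-fold, with a median of 0.20 and a range from -0.09 for VHA-a2 to 0.26 for VHA-a3 and VHA-A.

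Other cell types in the roots were read from marker lists, and their part in the aquaporin differences was not tested. The 6 root markers had a median difference of -0.41, beside -0.26 over all measured genes. The root hair gene COBL9 was higher (1.63), the endodermis gene CASP1 stood at 0.56, the root cap gene SMB was lower (-1.08), and SCR, SHR and PLT1 stood at -0.45, -0.38 and -0.76. Their sum, 20414 and 18940 in the low_Pi columns against 13194 and 14668 in the plus_Pi columns, was larger at low phosphate through CASP1 and COBL9. All 6 green tissue markers were measured, and 3 of them were lower, beside 4.47% of all measured genes. The 6 summed to 3126 and 2875 in the low_Pi columns against 4706 and 5069 in the plus_Pi columns.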

How the data were processed

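The table holds RNA-seq of the 4 libraries, per the labels. Its unit was taken as a score: the authors deposited whole numbers that the file's name calls normalized, and how they were normalized is not stated. The submitters' processing notes name CASAVA 1.4, FastQC, HISAT2, HTSeq and edgeR, with no role or order. The aligner's settings, the genome build, the annotation and the strand of counting are not given in the sources used here. Columns were matched to libraries by name, and the second low_Pi column only to its group.

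Members and the other gene lists were chosen with earlier results of these data known. All 35 members were named, and every gene of the other lists could be. Since the values are no counts, no count model was used. Differences were taken on log2(value + 41.5), with 41.5 being 1 part in 1000000 of the mean column total, and the filter was a mean of at least 41.5. Apart from a common ratio, the columns of a group agreed within sampling noise and were counted as 1 sample, so a size rule of 2-fold was used in place of a test. P-values over the columns, as in the limma alternatives, measure only the spread between columns, unequal totals included. The alternatives were pseudocounts of 4.15 and 208, median-of-ratios, trimmed-mean and quantile scaling, filters, a 1.5-fold limit, leaving out each column, and limma with and without a replicate block. The calculation was tested on simulated data.

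Gene models and sequences are from RefSeq's TAIR10.1, matched by locus identifier for all 35 members and for 27445 of the 27655 genes. Values per kilobase use the union of annotated exons. Coding identity was computed between the first isoforms. Tools were Python 3.11.15, pandas 2.3.3, numpy 2.4.6, Biopython 1.88, matplotlib 3.10.9, R 4.3.3 and limma 3.58.1.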

Additional observations from a re-analysis of the deposited data

How the results depend on the processing

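Over 9 settings of pseudocount, scaling and columns, 9 of the 30 measured members changed sign, the largest of these with a size of 0.25 as reported, and TIP1;3 stayed at least 2-fold higher and PIP2;3 at least 2-fold lower in each. Median-of-ratios scaling moved the median of all measured genes to -0.00, trimmed-mean scaling did the same, and quantile normalization moved it to -0.08. Leaving out a column put that median between -0.32 and -0.19. The count of 1 higher member became 3 with median-of-ratios and with trimmed-mean scaling, 0 with a mean of at least 208 and 5 at 1.5-fold. The count of 1 lower member became 2 with a pseudocount of 4.15 and with quantile normalization, 4 at 1.5-fold, and 1 to 2 leaving out a column (2 without low_Pi replicate 1). Leaving out a column kept the count of higher members at 1.

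Medians with median-of-ratios and trimmed-mean scaling were 0.281 and 0.279 for the family, 0.0615 and 0.0599 for PIP1, -0.0985 and -0.10 for PIP2, 0.507 and 0.505 for TIP, 0.344 and 0.342 for NIP, and 0.193 and 0.192 for SIP. With quantile normalization they were -0.328 for PIP1, 0.358 for TIP, 0.215 for NIP and 0.0294 for SIP, and a mean of at least 208 gave -0.583 for PIP2. Summed levels (log2 ratio) with median-of-ratios scaling were 0.222 for the family, 0.0105 for PIP1, -0.139 for PIP2, 0.587 for TIP, 0.280 for NIP and 0.219 for SIP. The causes were not tested.

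Limma tests were run on the 4 columns as deposited, without rescaling. The spread within a group that they used includes the unequal column totals, which the chi-square per gene left out. At a Benjamini-Hochberg adjusted threshold of 0.05 and without a replicate block, they called 8 members higher (26.7%, beside 17.1% of all measured genes) and 9 lower (30.0%, beside 52.0%). With the replicate block these were 6 higher (20.0%, beside 10.5%) and 4 lower (13.3%, beside 28.0%). Deviations of same-numbered columns correlated at -0.11, so crossed numbers were tried after seeing the data as a block, with 13 higher (43.3%, beside 25.3%) and 13 lower (43.3%, beside 67.8%). The numbers mark no shared batch in the labels. With 1 sample a group and unknown depth, no difference here has a biological replicate check, and the values of members under 41.5 set no limit.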
